A study of Homo sapiens with 26 samples.

Results

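The apolipoprotein genes described here are APOA1, APOA2, APOA4, APOB, APOC2, APOC3, APOE, APOH, APOM and APOL1. They were found in the deposited gene tables by matching each Ensembl identifier to its symbol. All 10 members were matched, each to 1 identifier, among 62703 identifiers in the Panc10.05 and BxPC3 tables and 62754 in the ASPC1 table. Poly(A) RNA was sequenced in 26 libraries, made from 3 established human lines of pancreatic ductal adenocarcinoma in which HNF4A had been either expressed or repressed. HNF4A encodes HNF4α, a nuclear receptor whose transcripts start at a P1 or a P2 promoter and give proteins that differ at their N-terminal end.

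In Panc10.05 and BxPC3, doxycycline switched on an introduced HNF4α isoform, either P1-a2 or P2-a8. Controls are labelled NC and received doxycycline too. The titles name the control GFP in Panc10.05 and EV-NC in BxPC3. Each of these 6 groups had 2 libraries. All BxPC3 groups received 500 ng/mL of doxycycline. In Panc10.05, P1-a2 and NC cells received 25 ng/mL and P2-a8 cells 12.5 ng/mL, so isoform and dose cannot be told apart in that line. ASPC1 (AsPC-1) carried CRISPR interference, in which a guide RNA brings an inactive Cas9 to a promoter and lowers transcription. Its guides were sgP1E and sgP1J (group sgP1), sgP2D and sgP2G (group sgP2), sgDual2 and sgDual3 (group sgDual) and the control sgNC, with 2 libraries for each guide. All cells were grown in RPMI-1640 with serum, and the labels do not say whether a line was 1 clone, how long doxycycline was given, or whether replicate libraries came from separate cultures. The p-values below therefore measure only the spread between these libraries.

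Apolipoproteins are the protein part of lipoproteins, the particles that carry lipid through blood and lymph. Most are made and secreted by hepatocytes and enterocytes, where HNF4α is a long-known activator of their genes. APOB is the structural protein of chylomicrons and very low density lipoprotein. APOA1 and APOA2 are the main proteins of high density lipoprotein, APOA4 is made mostly by the intestine, and APOC3 restrains the clearance of triglyceride-rich particles. APOC2 activates lipoprotein lipase, APOE is the ligand of lipoprotein receptors, APOM carries sphingosine-1-phosphate, APOH is a phospholipid-binding plasma protein, and APOL1 is a serum factor that kills trypanosomes and is induced by interferon in many cells.

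On GRCh38 in the GENCODE v29 annotation, APOA4 (ENSG00000110244, chromosome 11, 116820700 to 116823306), APOC3 (ENSG00000110245, 116829706 to 116833072) and APOA1 (ENSG00000118137, 116835751 to 116837950) stand next to each other within 17.3 kb, with APOC3 on the forward strand and the others on the reverse strand. APOA2 (ENSG00000158874) is on chromosome 1 from 161222292 to 161223631, and APOB (ENSG00000084674) on chromosome 2 from 21001429 to 21044073. APOE (ENSG00000130203, 44905754 to 44909393) and APOC2 (ENSG00000234906, 44945982 to 44949565) share a region of chromosome 19. APOH (ENSG00000091583) is on chromosome 17 from 66212033 to 66256525, APOM (ENSG00000204444) on chromosome 6 from 31652416 to 31658210, and APOL1 (ENSG00000100342) on chromosome 22 from 36253010 to 36267530. The counting's strand setting is not given in the sources used here. Counts of APOA1, APOA4, APOB and APOM are therefore uncertain where they overlap a gene of the opposite strand (APOA1-AS, AP006216.3, AC010872.1 and BAG6). APOE and APOC2 share exonic bases with a gene of their own strand, AC011481.3 and APOC4-APOC2, so their counts are uncertain as well. APOC4-APOC2 spans the whole of APOC2, and reads they share may be missing from the count of APOC2.

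The sequences before the start sites of APOA2 and APOA4 are shown because these genes reached the highest levels under P1-a2, APOA2 in Panc10.05 and APOA4 in BxPC3, from different chromosomes. They are the 250 bases before the RefSeq start site, 5′ to 3′ on the gene's strand, from RefSeq on GRCh38.p14, at chr1:161223629-161223878 for APOA2 and at chr11:116823305-116823554 for APOA4, both on the reverse strand. Capitals mark AAAGTCCA, which is the HNF4 motif CAAAGTCCA without its first letter.
APOA2: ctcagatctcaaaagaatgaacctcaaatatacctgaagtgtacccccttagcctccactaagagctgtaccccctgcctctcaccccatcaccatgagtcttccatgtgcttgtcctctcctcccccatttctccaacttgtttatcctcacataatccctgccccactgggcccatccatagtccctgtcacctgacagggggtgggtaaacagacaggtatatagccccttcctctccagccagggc
APOA4: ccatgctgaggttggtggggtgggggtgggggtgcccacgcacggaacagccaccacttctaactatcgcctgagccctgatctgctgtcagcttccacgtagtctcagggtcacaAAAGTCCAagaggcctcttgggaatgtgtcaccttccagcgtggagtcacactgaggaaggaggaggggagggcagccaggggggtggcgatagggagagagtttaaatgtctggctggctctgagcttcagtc

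The reference table held windows of 250 bases before to 50 bases after a start site for 6 members (APOA2, APOA4, APOC2, APOE, APOH and APOM). APOA1, APOB, APOC3 and APOL1 had no entry. Neither CAAAGTCCA nor the looser CAAAGTNCA, searched on both strands, was found in the 8 windows of these members. They occur in 0.384% and 1.1% of all 35116 windows. The nuclear receptor sequence AGGTCA, found in 13.8% of all windows, was present in 1 of the members' windows, on the reverse strand of APOC2. The shorter AAAGTCCA, searched after the windows had been read, was found in the APOA4 window alone, with its first base at position -134 from the start site, and in 1.14% of all windows. A match is a description of letters, not a measured binding site.

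The total count of a library was between 34618745 and 46827673 for Panc10.05, between 26369154 and 37483772 for BxPC3, and between 26079388 and 50662077 for ASPC1. HNF4A itself followed the labels. In Panc10.05 it was at 0.149 ± 0.129 CPM (counts scaled to a library size of 1e6; mean ± SD, n = 2) in NC, 11.8 ± 1.61 under P1-a2 and 37.6 ± 0.00506 under P2-a8, and in BxPC3 at 0.771 ± 0.434, 10.7 ± 1.32 and 13.4 ± 1.15 CPM. These counts cannot tell apart the introduced and the cells' own HNF4A. All 6 markers of ductal carcinoma cells were above 1 CPM in every library of every group except sgP2 in ASPC1, where 5 of them were. KRT7, 1 of the 6, was low throughout ASPC1, at 0.503 to 8.47 CPM. It was at 961 to 1584 CPM in Panc10.05 and 1648 to 2020 in BxPC3. The 5 hepatocyte markers summed to no more than 0.391 CPM in any library.

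The plot of levels in the induced lines shows 5 genes (APOA1, APOA2, APOA4, APOB and APOC3) that were at or next to 0 in NC and present under both isoforms in both lines. These 5 passed the filter on low counts only through the induced libraries, so the number of them past the threshold is given as a description only. APOL1, APOM and APOE were present in the controls, and APOC2 and APOH had 0 counts in all 12 induced and control libraries. In each of these lines 8 of the 10 members thus entered the tests.

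**Figure D1:**
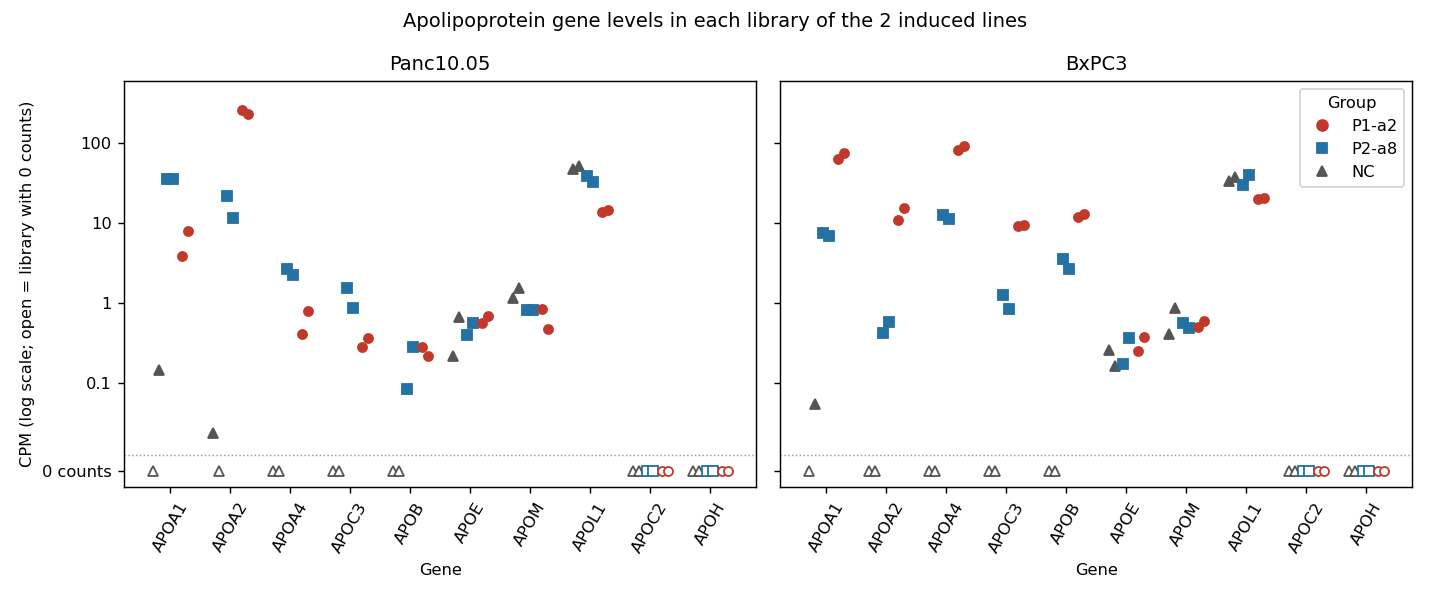
Level of each apolipoprotein gene in CPM (log axis, effective library sizes) in each of the 6 Panc10.05 and 6 BxPC3 libraries. Open symbols under the dotted line are libraries with 0 counts. APOA2 stood at 234 and 260 CPM under P1-a2 in Panc10.05, and APOA4 at 81.7 and 92 CPM under P1-a2 in BxPC3.

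In Panc10.05, P1-a2 cells held APOA2 at levels far above those of the other 9 members. APOA2 had 10127 and 10777 counts under P1-a2, which is 260 and 234 CPM, against 1029 and 408 counts under P2-a8 (22 and 11.5 CPM) and 1 and 0 counts in NC. Both P1-a2 libraries were above both P2-a8 libraries, which in turn were above both controls. The ratio of P1-a2 to NC was 18741, with a 95% interval from counting alone of 3363 to 740252, and the difference was past the threshold (Benjamini-Hochberg adjusted p = 0.000787 in the quasi-likelihood test of edgeR). Its log2 fold change moved from 13.90 to 16.27 without the first NC library and to 13.16 without the second, past the threshold in each case. P2-a8 stood 1330 times above NC (95% counting interval 238 to 52555, edgeR adjusted p = 0.00851). Leaving out the first or the second NC library moved its log2 fold change from 10.04 to 12.44 or 9.30 and raised its adjusted p to 0.0766 or 0.0733, which ended the call.

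APOA1 showed the opposite order of the isoforms in this line. It had 153 and 366 counts under P1-a2 (3.93 and 7.96 CPM), 1669 and 1259 under P2-a8 (35.7 and 35.5 CPM) and 0 and 5 in NC. Again no group overlapped another. Against NC the ratio was 93.1 for P1-a2 (95% counting interval 39.6 to 288, edgeR adjusted p = 0.0112) and 542 for P2-a8 (232 to 1670, adjusted p = 0.00265). The call for P1-a2 was lost without the first NC library (adjusted p = 0.0815, log2 fold change 5.34) or without the second (adjusted p = 0.0605, log2 fold change 10.98), against 6.46 with both. The log2 fold change of P2-a8 moved from 9.01 to 7.91 or 13.54 without 1 or the other NC library and stayed past the threshold.

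APOA4 and APOC3, the neighbours of APOA1, were lower in level and ordered like it. APOA4 had 16 and 37 counts under P1-a2, 125 and 79 under P2-a8 and 0 in both NC libraries. APOC3 had 11 and 17 counts under P1-a2, 72 and 31 under P2-a8 and 0 in NC. With the floor of a control group at 3 counts over its 2 libraries, P1-a2 was at least 15.8-fold above NC for APOA4 (edgeR adjusted p = 3.43e-08) and at least 8.37-fold for APOC3 (adjusted p = 1.6e-05). P2-a8 was at least 62.9-fold above NC for APOA4 (adjusted p = 5.29e-14) and at least 31.8-fold for APOC3 (adjusted p = 4.77e-10).

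APOB was detected under both isoforms at a very low level. It had 11 and 10 counts under P1-a2, 4 and 10 under P2-a8 and 0 in NC, which made it at least 6.28-fold higher under P1-a2 (edgeR adjusted p = 0.000297) and at least 4.32-fold higher under P2-a8 (adjusted p = 0.00285). Without the second P2-a8 library the latter was no longer past the threshold (adjusted p = 0.0818).

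Of APOL1, APOM and APOE, the members well above 0 in Panc10.05 controls, none was called higher. APOL1 fell under both isoforms: it was at 47.6 and 51.3 CPM in NC, at 39.2 and 33.2 under P2-a8 and at 13.7 and 14.8 under P1-a2, with no overlap between groups. Against NC, P1-a2 gave a log2 fold change of -1.79 (SE 0.09, edgeR adjusted p = 1.18e-21) and P2-a8 one of -0.44 (SE 0.08, adjusted p = 9.94e-06). APOM had 33 and 22 counts under P1-a2, 39 and 29 under P2-a8 and 48 and 53 in NC, a log2 fold change of -1.03 for P1-a2 (SE 0.31, edgeR adjusted p = 0.00388). That call was lost with DESeq2 (adjusted p = 0.0627), without the second P1-a2 library (adjusted p = 0.127) and without the second NC library (adjusted p = 0.0587), and P2-a8 against NC gave -0.69 (adjusted p = 0.0567). The latter was past the threshold without the first NC library (-0.89, adjusted p = 0.0411) and in a fit of both groups only (adjusted p = 0.0485). APOE, with 9 to 32 counts in a library, did not pass the threshold under either isoform (adjusted p = 0.251 and 0.805), and its groups overlapped those of NC. Without the second NC library P1-a2 against NC was past it (log2 fold change 1.54 in place of 0.57, adjusted p = 0.0205).

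P1-a2 against NC called 5 of the 8 tested members higher and 2 lower, where 31.5% of all tested genes were called higher and 30.5% lower. P2-a8 against NC called 5 higher and 1 lower, against 23.7% and 22.5% of all tested genes.

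In BxPC3 the same 5 genes rose under both isoforms, and here every one of them was highest under P1-a2. APOA4 led, with 2603 and 3402 counts under P1-a2 (81.7 and 92 CPM), 437 and 366 under P2-a8 (12.5 and 11.2 CPM) and 0 in both NC libraries. The groups lay far apart: P1-a2 was at least 1846-fold above NC (edgeR adjusted p = 5.41e-10) and P2-a8 at least 251-fold (adjusted p = 5.76e-08). APOA1 was at 64.2 and 75.2 CPM under P1-a2, at 7.55 and 6.98 under P2-a8 and had 0 and 2 counts in NC. Its ratio to NC was 2227 for P1-a2 (95% counting interval 616 to 18393, edgeR adjusted p = 5.41e-10) and 231 for P2-a8 (63.6 to 1913, adjusted p = 1.9e-07). Without the first or the second NC library the log2 fold change moved from 10.95 to 10.22 or 14.16 for P1-a2 and from 7.69 to 6.95 or 10.89 for P2-a8, past the threshold each time.

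APOC3, between these genes on chromosome 11, had 291 and 350 counts under P1-a2, 44 and 28 under P2-a8 and none in NC. It was at least 197-fold higher under P1-a2 (edgeR adjusted p = 2.17e-07) and at least 22.5-fold higher under P2-a8 (adjusted p = 0.000226). APOA2 had 354 and 578 counts under P1-a2 (11.1 and 15.6 CPM), only 15 and 19 under P2-a8 (0.429 and 0.582 CPM) and none in NC, at least 286-fold (edgeR adjusted p = 2.28e-07) and at least 10.6-fold (adjusted p = 0.00479) above NC. APOA2 was the member with the highest level under P1-a2 in Panc10.05 but not here.

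APOB, which Panc10.05 expressed at the edge of detection, was well covered in BxPC3. It had 386 and 490 counts under P1-a2 (12.1 and 13.2 CPM), 126 and 87 under P2-a8 (3.6 and 2.66 CPM) and 0 in NC. P1-a2 was at least 269-fold above NC (edgeR adjusted p = 1.06e-07) and P2-a8 at least 66.7-fold (adjusted p = 1e-05). In bulk RNA, more expressing cells and more RNA in each cell cannot be told apart, for these genes as for all that follow.

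APOL1 fell in BxPC3 under P1-a2. It was at 34.2 and 38.3 CPM in NC, 20.1 and 20.4 under P1-a2 and 30.3 and 40.6 under P2-a8. The P1-a2 libraries were below all others, with a log2 fold change of -0.84 against NC (SE 0.13, edgeR adjusted p = 0.000704), while the P2-a8 and NC libraries overlapped (adjusted p = 0.914). APOE (6 to 14 counts in a library) and APOM (11 to 32 counts) did not pass the threshold against NC, with adjusted p from 0.505 to 0.818. P1-a2 against NC called 5 of 8 tested members higher and 1 lower, against 17.1% and 14.9% of all tested genes, and P2-a8 against NC called 5 higher and 0 lower, against 4.3% and 2.69%.

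The direct comparison of the isoforms separated the lines. In BxPC3, at equal doxycycline doses and with HNF4A at 10.7 CPM under P1-a2 and 13.4 under P2-a8, APOA1 (log2 fold change P1-a2 minus P2-a8 3.26), APOA2 (4.72), APOA4 (2.87), APOB (2.01) and APOC3 (3.12) were all higher under P1-a2 and APOL1 was lower (-0.81, SE 0.13, edgeR adjusted p = 0.00174). In CPM of summed counts, that is 9.64 times more APOA1, 26.9 times more APOA2, 7.34 times more APOA4, 4.04 times more APOB and 8.74 times more APOC3. These 5 higher and 1 lower of 8 tested members stood beside 11.6% and 10.8% of all tested genes.

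In Panc10.05, at 25 against 12.5 ng/mL of doxycycline and with HNF4A at 11.8 CPM under P1-a2 and 37.6 under P2-a8, only APOA2 of the members was called higher under P1-a2, by a log2 fold change of 3.86 (SE 0.35, edgeR adjusted p = 0.0038) or 14.1 times. APOA1 (-2.56, SE 0.37, adjusted p = 0.0116), APOA4 (-1.98, SE 0.29, adjusted p = 2.46e-07) and APOC3 (-1.89, SE 0.39, adjusted p = 9.68e-05) were lower, as was APOL1 (-1.34, SE 0.09, adjusted p = 1.04e-16). The APOA1 call was lost without either P2-a8 library (adjusted p = 0.0745 and 0.0698). APOB had 21 counts under P1-a2 and 14 under P2-a8 in all and did not pass the threshold (adjusted p = 0.536). APOE and APOM did not pass it between the isoforms in either line (adjusted p from 0.42 to 0.955). This was 1 of 8 tested members higher and 4 lower, where 22.2% and 24.7% of all tested genes were called. The part of the HNF4A level and of the dose in these differences was not tested.

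**Figure D2:**
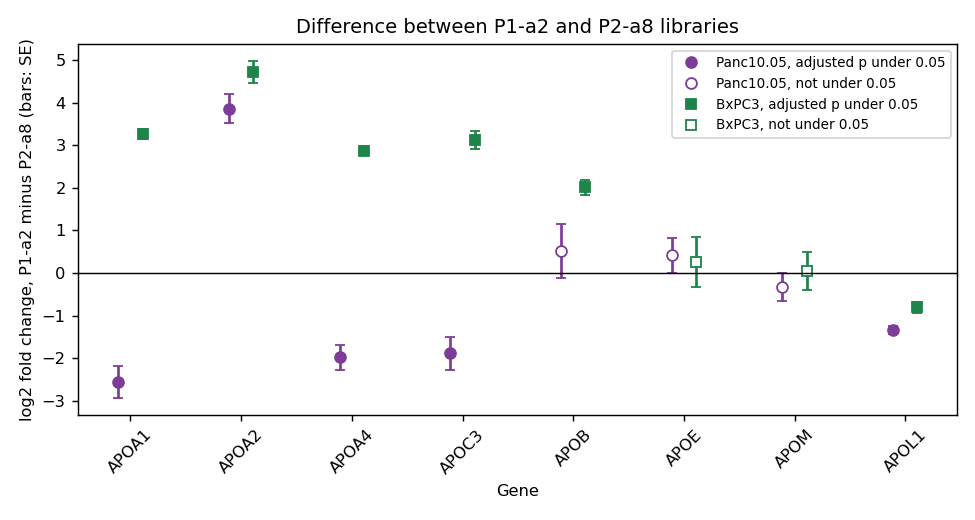
Log2 fold change between P1-a2 and P2-a8 libraries (edgeR, bars are 1 SE) for the 8 tested members in Panc10.05 and BxPC3. APOA2 lies above 0 in both lines, at 3.86 and 4.72, while APOA1, APOA4 and APOC3 lie below 0 in Panc10.05 and above 0 in BxPC3.

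The difference between the lines was itself tested, as an interaction in a joint fit of the 12 libraries. The isoform difference of the 3 clustered genes was lower in Panc10.05 than in BxPC3, with a log2 interaction of -5.81 for APOA1 (edgeR adjusted p = 5.47e-05), -4.84 for APOA4 (adjusted p = 7.57e-11) and -5.01 for APOC3 (adjusted p = 3.5e-08). APOL1 differed by -0.53 (adjusted p = 0.034), a call that was lost without any 1 of 5 libraries (adjusted p from 0.0875 to 0.119): P1-a2 or P2-a8 replicate 1 of either line, or P1-a2 replicate 2 of BxPC3. For APOA2 the difference between lines was -0.86 and not past the threshold (adjusted p = 0.583), but it was past it without P2-a8 replicate 2 of Panc10.05 (-1.26, adjusted p = 0.0288). For APOB it was -1.48 (adjusted p = 0.0943), and without P2-a8 replicate 1 of Panc10.05 it was -2.20 (adjusted p = 0.0256). Of all genes in the joint fit, 22.3% were past the threshold in this contrast. The lines also differ in dose and in the number that begins their library titles. Line, dose and any batch that this number marks cannot be told apart here.

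Against NC the same contrast gives no usable estimate for APOA2, APOA4, APOB and APOC3, which had 0 counts in the controls of 1 line or both. APOA1, with 5 and 2 counts in the controls of Panc10.05 and BxPC3, differed between lines by -4.52 under P1-a2 (SE 2.80, edgeR adjusted p = 0.27) and by 1.30 under P2-a8 (SE 3.33, adjusted p = 0.862). The former was past the threshold with DESeq2 (adjusted p = 0.00237) and without either P1-a2 library of Panc10.05 (adjusted p = 0.0209 and 0.00558). APOL1 fell more under P1-a2 in Panc10.05 than in BxPC3, with a log2 interaction of -0.93 (edgeR adjusted p = 0.000295). Under P2-a8 no member passed the threshold with edgeR, or with DESeq2, and APOL1 had adjusted p = 0.0813 there (unadjusted p = 0.0223). With edgeR, APOL1 was past it without the filter on low counts (adjusted p = 0.0111), with the replicate number as a block (0.0114), and without the first P2-a8 library of Panc10.05 (0.0379) or of BxPC3 (0.00176). In these contrasts 36.4% and 23.5% of all genes were past the threshold. The control construct (GFP or EV-NC) and the dose differ between the lines too, so they cannot be told apart from line here. The same holds for any batch marked by the number that begins the library titles, which differs between the lines.

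Ratios within a library are free of library scaling and show how differently the members were composed. Divided by the length of each gene's joined exons, APOA1 stood at 0.01 and 0.0225 times APOA2 in the 2 P1-a2 libraries of Panc10.05 and at 1.08 and 2.05 times in its P2-a8 libraries. In BxPC3 the ratio was 3.84 and 3.2 under P1-a2 and 11.7 and 7.96 under P2-a8. The 4 pairs of libraries thus did not overlap, and in both lines APOA1 took more of the pair under P2-a8.

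Within the chromosome 11 cluster the ratios differed between the lines. APOA4 per kb was 0.0607 to 0.101 times APOA1 in the 4 induced Panc10.05 libraries and 1.18 to 1.6 times in the 4 of BxPC3. APOC3 was 0.0405 to 0.118 times APOA1 in Panc10.05 and 0.202 to 0.274 times in BxPC3. The lines did not overlap in either ratio. No test was made of these ratios.

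**Figure D3:**
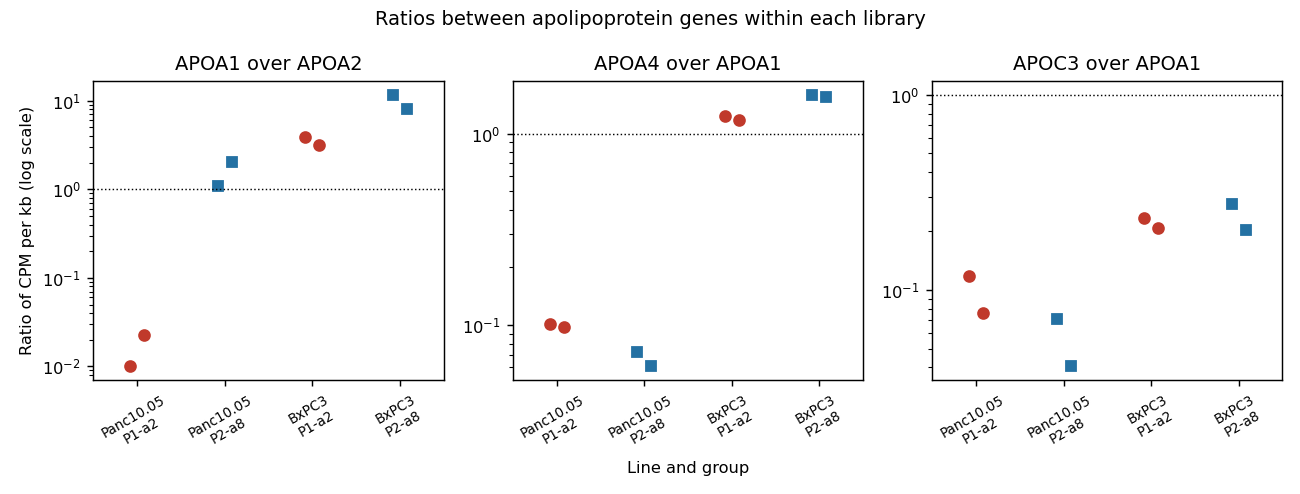
Ratio of CPM per kb of joined exon length (log axis) between pairs of genes within each induced library, 2 libraries for each line and group. The dotted line marks equal levels. APOA4 over APOA1 lies between 0.0607 and 0.101 in Panc10.05 and between 1.18 and 1.6 in BxPC3.

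By level per kb, the order of the members was led under P1-a2 in Panc10.05 by APOA2 at 262 CPM per kb, followed by APOA1 at 4.17 and APOL1 at 4.06, whose libraries overlapped. APOA4, APOM and APOC3 followed at 0.413, 0.399 and 0.376 and overlapped each other as well. Under P2-a8 in Panc10.05 the order began with APOA1 at 25, APOA2 at 17.7 (12.2 to 23.3) and APOL1 at 10.3 CPM per kb, with no overlap among these 3. In BxPC3 under P1-a2 it was APOA4 at 58.9, APOA1 at 49, APOA2 at 14.1, APOC3 at 10.7 and APOL1 at 5.75 CPM per kb, again without overlap between neighbours. Under P2-a8 in BxPC3 APOL1 came first, then APOA4 at 8.05 and APOA1 at 5.1 CPM per kb, with no overlap between these neighbours. APOB, the longest of these transcripts, was at 0.855 CPM per kb in BxPC3 P1-a2 and at 0.0169 in Panc10.05 P1-a2. The tables of the lines were normalized separately, so levels set across lines are a description.

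In ASPC1, which expresses HNF4A from its own promoters, the cluster genes and APOA2 were next to absent whatever the guide. HNF4A was at 213 ± 9.95 CPM (SD, n = 2) under sgNC, 129 ± 18.4 under sgP1 (n = 4), 86.5 ± 7.74 under sgP2 (n = 4) and 7.99 ± 4.84 under sgDual (n = 4). An n of 4 is 2 libraries for each of 2 guides. Over all 14 libraries, APOA1 had 5 counts, APOA4 and APOC3 had 2 each, APOH had 1, and APOA2, APOB and APOC2 had 0. By counting error alone, this allows a level of up to 0.00631 CPM for a gene at 0. For APOC2 that limit does not cover reads shared with APOC4-APOC2, which may not have been counted for it. For comparison, BxPC3 P1-a2 cells held APOA4 at 86.8 ± 7.29 CPM with HNF4A at 10.7 CPM. A fall of these genes on repression was therefore not detectable at this depth. APOE, with 0 to 10 counts in a library, did not pass the filter on low counts either.

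APOL1 and APOM were the members expressed in ASPC1. APOL1 was at 51.7 and 61.5 CPM under sgNC, between 47.1 and 68 under sgP1 (median 57.7), between 43.1 and 54.6 under sgP2 (median 49) and between 57.7 and 72.6 under sgDual (median 64.8). Every sgDual library was above every sgP2 library, and the log2 fold change between them was 0.41 (SE 0.11, edgeR adjusted p = 0.00602). Without guide sgDual3 it was 0.28 (adjusted p = 0.106) and without guide sgP2G 0.33 (adjusted p = 0.0783), so the call rested on both. In that comparison 46.4% of all genes were past the threshold. The sgP1, sgP2 and sgDual groups held 4 libraries from 2 guides each, which entered the group fits as separate libraries. The SE and p-values of ASPC1 group comparisons thus take no account of guide and do not measure the spread between guides.

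None of the other ASPC1 group comparisons called either gene, with edgeR or DESeq2, but without guide sgP1E APOL1 was higher under sgDual than under sgP1 (log2 fold change 0.33, edgeR adjusted p = 0.0386). The groups overlapped, adjusted p for APOL1 ran from 0.224 (sgDual against sgP1) to 0.98 (sgP1 against sgNC), and APOM stayed between 1.91 and 3.05 CPM in all 14 libraries, with adjusted p from 0.656 to 0.912 over all 6 group comparisons. Of all genes, 0.265% were called for sgP1 against sgNC, 3.42% for sgP2 against sgNC, 35.6% for sgDual against sgNC, 4.3% for sgP2 against sgP1 and 38.3% for sgDual against sgP1. At an edgeR p under 0.05 before adjustment, 1 difference would have been counted, APOL1 for sgP2 against sgP1 (0.045).

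Guides to the same target were compared as well. Guide sgP1E left HNF4A at 145 ± 0.922 CPM and sgP1J at 114 ± 6.69, and APOL1 was at 58.1 and 68 CPM under sgP1E and at 47.1 and 57.3 under sgP1J (adjusted p = 0.139). APOM was at 2.51 and 3.05 CPM under sgP2D and at 2.07 and 1.91 under sgP2G, with no overlap and adjusted p = 0.446. Neither gene passed the threshold between guides of a target, by edgeR or DESeq2, but with the replicate number as a block APOL1 did between sgP1E and sgP1J (adjusted p = 0.0216). At an edgeR p under 0.05 before adjustment there were 2 differences, APOL1 between the sgP1 guides (0.0344) and APOM between the sgP2 guides (0.0355). Of all genes, 14.5% passed between the sgP1 guides, 1.69% between the sgP2 guides and 0.883% between the sgDual guides.

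**Figure D4:**
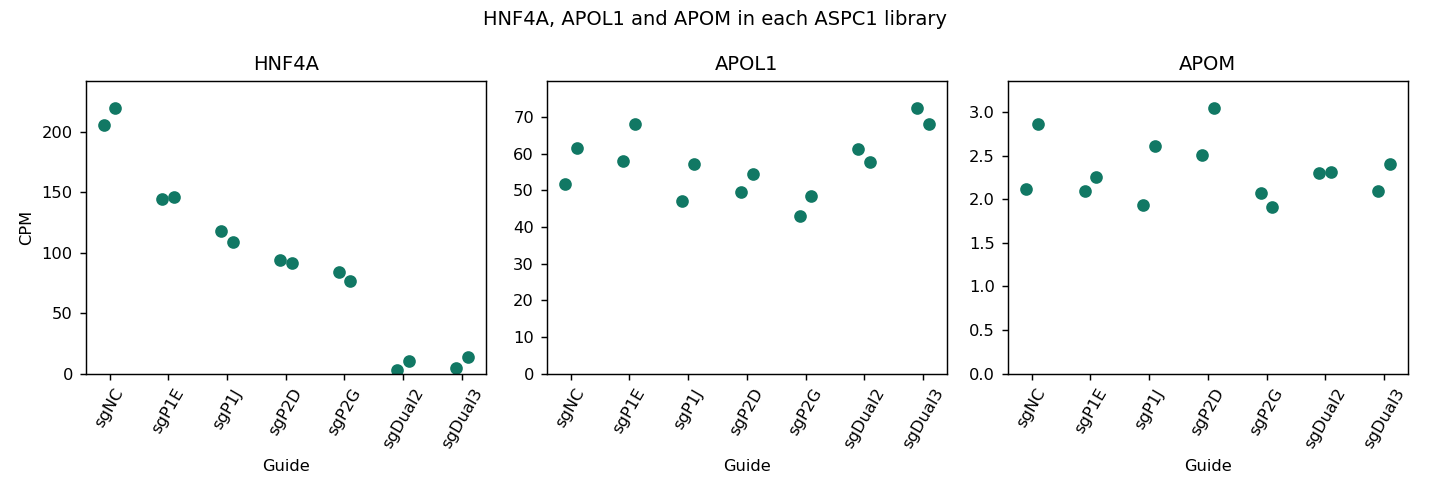
HNF4A, APOL1 and APOM in CPM in each ASPC1 library, by guide (2 libraries each; axes start at 0). HNF4A runs from 206 and 220 CPM under sgNC to between 3.19 and 13.6 under the sgDual guides, while APOL1 stays between 43.1 and 72.6 and APOM between 1.91 and 3.05.

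Other apolipoprotein genes were mostly lower in induced Panc10.05 cells, as APOL1 was. Of 15 such genes, 8 were tested in that line. Under P1-a2, 7 were lower and 0 higher than NC (median log2 fold change -1.02, against 0.02 over all tested genes). Under P2-a8, 6 were lower and 0 higher. Of all tested genes, 30.5% were called lower and 31.5% higher under P1-a2, and 22.5% and 23.7% under P2-a8. APOL6, another gene of the APOL family, fell from 51.4 CPM in NC to 12.4 under P1-a2 (log2 fold change -2.04, edgeR adjusted p = 7.92e-24) and CLU, which encodes the chaperone clusterin or apolipoprotein J, from 60.8 to 17.1 (-1.82, adjusted p = 1.83e-23). APOL3 fell as well, at low levels, from 3.23 to 1.03 CPM (-1.64, adjusted p = 2.54e-08).

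In BxPC3 the APOL genes went different ways. Of 9 tested genes of this list, 1 was higher and 3 lower under P1-a2 than in NC (median -0.32 against -0.01). That comparison called 17.1% of all tested genes higher and 14.9% lower. APOL2 was higher under both isoforms, at 26.2 CPM in each against 19 in NC (log2 fold change 0.47 in each, edgeR adjusted p = 0.00773 and 0.03). CLU was lower under P1-a2 (-1.02, adjusted p = 1.62e-05) and under P2-a8 (-0.50, adjusted p = 0.00649), and APOL3 under P1-a2 (-0.64, adjusted p = 0.000566). APOC1, a neighbour of APOE and APOC2, was lower under P1-a2, at 0.341 against 0.873 CPM (-1.37, adjusted p = 0.0323). In ASPC1 under sgDual, 3 of 8 were higher than under sgNC and 1 lower, in a comparison that called 35.6% of all genes. APOL3 rose by 1.61 (edgeR adjusted p = 0.00447), CLU by 1.00 (adjusted p = 0.00319) and APOL6 by 0.73 (adjusted p = 0.0277), and APOO, a mitochondrial protein, fell by 0.36 on the log2 scale (adjusted p = 0.0427).

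**Figure D5:**
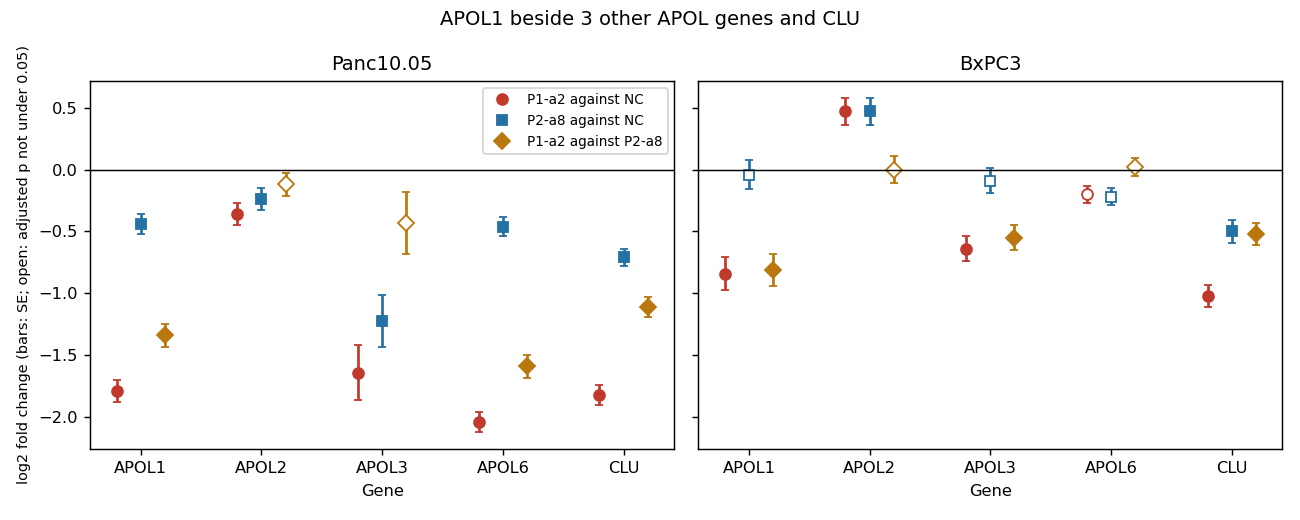
Log2 fold change (edgeR, bars are 1 SE) of APOL1, APOL2, APOL3, APOL6 and CLU in 3 comparisons in each induced line; open symbols did not pass the threshold. In Panc10.05 all 5 genes lie below 0 under P1-a2, from -0.36 for APOL2 to -2.04 for APOL6, and in BxPC3 APOL2 lies above 0 at 0.47 under both isoforms.

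APOB is secreted only once it has been loaded with lipid, so 24 genes of lipoprotein assembly and secretion were followed. In BxPC3, 14 of 22 tested were higher and 3 lower under P1-a2 than in NC (median 0.41 against -0.01). Under P2-a8, 8 were higher and 0 lower (median 0.22 against 0.01). Of all tested genes, 17.1% were called higher and 14.9% lower under P1-a2, and 4.3% and 2.69% under P2-a8. CIDEC and TM6SF2 had 0 counts in NC, MOGAT3 had 4 and MOGAT2 had 2. These genes passed the filter on low counts only through the induced libraries, so a fall was not open to them. MTTP, the transfer protein that loads lipid onto APOB, was at 0.445 CPM in NC, 2.98 under P2-a8 (log2 fold change 2.71, edgeR adjusted p = 0.000157) and 6.88 under P1-a2 (3.91, adjusted p = 1.21e-06). MOGAT3, an enzyme of triglyceride synthesis, stood at 37.4 CPM under P1-a2 and 8.99 under P2-a8 against 0.0744 in NC, and the lipid droplet protein gene CIDEC had 206 counts under P1-a2, 3 under P2-a8 and 0 in NC. MTTP under P1-a2 is named outside the naming rule, after its values were seen.

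In Panc10.05, 9 of 20 tested genes of the list were higher and 4 lower under each isoform than in NC. The median was 0.05 against 0.02 under P1-a2 and 0.15 against 0.00 under P2-a8. Of all tested genes, 31.5% were called higher and 30.5% lower under P1-a2, and 23.7% and 22.5% under P2-a8. CIDEC and MOGAT2 had 0 counts in NC here and CIDEB had 8, so they too passed the filter only through the induced libraries. CIDEB, which acts in the lipidation of very low density lipoprotein, rose from 0.104 CPM to 22.2 under P1-a2 (log2 fold change 7.69, edgeR adjusted p = 7.38e-29) and 4.75 under P2-a8 (5.47, adjusted p = 2.41e-19). MOGAT2, the intestinal enzyme, had 0 counts in NC, 15 under P1-a2 and 112 under P2-a8, so P1-a2 was below P2-a8 (-2.91, edgeR adjusted p = 4.03e-07). APOA1, APOA4 and APOC3 had that order in this line. MOGAT3 (2.59), CIDEB (2.22) and CIDEC (1.79) had the opposite order. Between the isoforms, 6 of the 20 genes were higher under P1-a2 and 5 lower, beside 22.2% and 24.7% of all tested genes.

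In ASPC1 under sgDual, 2 of 22 tested genes of this list were higher and 12 lower than under sgNC (median -0.30 against 0.00), a comparison that called 35.6% of all genes. Under sgP1, 2 were lower than under sgNC (median -0.18 against 0.01), CIDEB (log2 fold change -2.02) and CIDEC (-1.22). That comparison called 0.265% of all genes. Under sgDual, CIDEB went from 9.8 CPM under sgNC to 0.418 (log2 fold change -4.53, edgeR adjusted p = 1.23e-07) and MOGAT3 from 29.1 to 1.06 (-4.78, adjusted p = 5e-07). PLTP, which transfers phospholipid between lipoproteins, rose under sgDual from 8.91 to 32.7 CPM (1.88, edgeR adjusted p = 0.000164).

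Among 29 genes of lipoprotein receptors, lipases and remodelling, 5 of 17 tested were higher and 10 lower in Panc10.05 P1-a2 than in NC (median -0.73 against 0.02). That comparison called 31.5% of all tested genes higher and 30.5% lower. ABCA1, which passes cholesterol to APOA1 to form high density lipoprotein, fell from 87 CPM to 17 (log2 fold change -2.35, edgeR adjusted p = 3.8e-20), and LCAT, the enzyme that APOA1 activates, rose from 2.85 to 7.5 (1.39, adjusted p = 7.89e-11). Under P2-a8, 6 were higher and 5 lower (median 0.10 against 0.00), beside 23.7% and 22.5% of all tested genes. ABCA1 stood at 35.7 CPM there (-1.29, edgeR adjusted p = 8.07e-14). In BxPC3, 3 of 20 were higher and 5 lower under P1-a2 (median -0.10 against -0.01), beside 17.1% and 14.9% of all tested genes. Under P2-a8, 2 were higher and 1 lower (median 0.00 against 0.01), beside 4.3% and 2.69%. SCARB1, the high density lipoprotein receptor, was higher under both, at 144 and 105 CPM against 70.7 (1.03, adjusted p = 2.13e-06, and 0.58, adjusted p = 0.000701). In ASPC1 under sgDual, 9 of 19 were higher and 3 lower than under sgNC (median 0.35 against 0.00). That comparison called 35.6% of all genes. LRP1, a receptor of APOE-bearing remnants, was at 157 against 62.7 CPM (1.32, edgeR adjusted p = 0.00648) and ABCG5, a sterol exporter, was lower (-1.85, adjusted p = 0.00567).

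Of 29 transcription factors and cofactors known at apolipoprotein promoters, 14 of 22 tested were higher and 5 lower in Panc10.05 P1-a2 than in NC (median 0.53 against 0.02), beside 31.5% and 30.5% of all tested genes. In BxPC3 P1-a2, 7 of 23 were higher and 6 lower (median 0.04 against -0.01), beside 17.1% and 14.9%. Under P2-a8, 13 of 22 were higher and 3 lower in Panc10.05 (median 0.32 against 0.00), beside 23.7% and 22.5%. In BxPC3 P2-a8, 3 of 23 were higher and 1 lower (median -0.01 against 0.01), beside 4.3% and 2.69%. In ASPC1 under sgDual, 7 of 25 were higher and 5 lower than under sgNC (median 0.07 against 0.00), where 35.6% of all genes were called. CREB3L3, a membrane-bound activator of APOA4 in liver and intestine, was higher under P1-a2 in Panc10.05 (2.55 against 0.205 CPM, log2 fold change 3.58, edgeR adjusted p = 4.68e-13) and in BxPC3 (4.32 against 0.125 CPM, 5.24, adjusted p = 9.04e-06). In ASPC1 CREB3L3 was at 290 CPM under sgNC and 123 under sgDual (-1.23, adjusted p = 1.26e-06), far above the induced lines. NR0B2, a repressor of HNF4α activity, had 198 counts under P1-a2, 9 under P2-a8 and 0 in NC of BxPC3 (adjusted p = 4.52e-06 and 0.0461).

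Neighbouring genes were counted to show whether whole loci moved. Of 28 tested neighbours, 13 were higher and 8 lower in Panc10.05 P1-a2 than in NC (median -0.01 against 0.02). In BxPC3 P1-a2, 12 were higher and 2 lower (median 0.17 against -0.01). Of all tested genes, 31.5% were called higher and 30.5% lower in the former comparison, and 17.1% and 14.9% in the latter. Under P2-a8, 7 of the 28 were higher and 9 lower in Panc10.05 (median -0.02 against 0.00), beside 23.7% and 22.5%. In BxPC3 P2-a8, 2 were higher and 0 lower (median 0.07 against 0.01), beside 4.3% and 2.69%. In ASPC1 under sgDual, 2 of 26 were higher and 8 lower than under sgNC (median -0.06 against 0.00), where 35.6% of all genes were called. NR1I3 and FCER1G, which lie on either side of APOA2, had the order of groups that APOA2 had in Panc10.05. NR1I3, the nuclear receptor CAR, which overlaps TOMM40L on the opposite strand, was at 9.8 CPM under P1-a2, 0.868 under P2-a8 and 0.029 in NC of Panc10.05, and FCER1G, an immune receptor subunit, at 10, 3.62 and 0.25 CPM. In BxPC3, NR1I3 was at 3.66 CPM under P1-a2 against 3 counts under each of P2-a8 and NC, and FCER1G at 2.67, 0.315 and 0.0459 CPM. Beside the chromosome 11 cluster, SIDT2 was higher in BxPC3 P2-a8 (log2 fold change 0.68, edgeR adjusted p = 0.00198) and TAGLN in BxPC3 P1-a2 (1.43, adjusted p = 0.026).

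Some markers of other cell types moved with the induced apolipoproteins. The 4 enterocyte markers (ALPI, SI, LCT and RBP2) summed to 12.6 to 14.7 CPM in BxPC3 P1-a2, 1.52 to 1.59 in P2-a8 and 0.0744 to 0.137 in NC, with SI, the defining sucrase, at 0 counts in all 12 libraries of both induced lines. In BxPC3 RBP2 reached 13.2 CPM and ALPI 1.79. LCT did not go with them, at 0 counts under P1-a2 and at most 0.137 CPM in any library of BxPC3. In Panc10.05 the 4 enterocyte markers summed to 1.43 to 1.75 CPM under P1-a2, 0.876 to 1.41 under P2-a8 and 0.264 to 0.435 in NC. The sum in NC was LCT alone, as ALPI, SI and RBP2 had 0 counts there. LCT was thus highest in a control library of Panc10.05, at 0.435 CPM. The 5 leukocyte markers summed to 19.3 to 25.8 CPM in BxPC3 P1-a2, 6.78 to 7.78 in P2-a8 and 3.2 to 3.96 in NC, and in this line PTPRC did not pass 0.137 CPM in any library and CD79A reached 20.7. In Panc10.05 they summed to 11.1 to 11.7 CPM under P1-a2, 8.68 to 8.95 under P2-a8 and 7.07 to 7.18 in NC, with PTPRC at 0 counts. The 5 hepatocyte markers summed to 0.0941 to 0.216 CPM in BxPC3 P1-a2 and 0.219 to 0.223 in NC. The part of these markers in the results was not tested.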

How the data were processed

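The values are counts per gene, deposited by the authors in 1 table per cell line, whole numbers with no normalization. Per the submitters' processing notes, the tools were cutadapt 1.16, STAR 2.7.9a, featureCounts 1.6.3 and DESeq2 1.36.0 with build GRCh38; annotation and strand setting are not given in the sources used here. Groups, guides and replicate numbers came from the labels. Symbols came from a reference table that matched 99.88% of identifiers in Panc10.05 and BxPC3 and 99.91% in ASPC1, and coordinates and exon lengths from GENCODE v29. Per line, genes were kept by filterByExpr, library sizes were scaled by TMM, and all genes were tested with edgeR 4.0.16 (quasi-likelihood F test, robust) in R 4.3.3. Adjusted p-values are Benjamini-Hochberg values over all tested genes, and past the threshold means an adjusted p under 0.05. The groups of a line shared 1 estimate of the spread; guides were tested in a fit of 7 groups, and line differences in a joint fit. SE is the absolute log2 fold change divided by the square root of F. CPM uses effective library sizes. Against a group at 0 counts, a fold is a lower bound from a floor of 3 counts over the group; other ratios have exact 95% intervals. Floors and intervals cover counting error only. The fits of each line and the fit by guide were tried on simulated data, with changes planted in well-covered genes only. Neither the joint fit of the lines nor genes at 0 counts in a group were covered. No 2 replicate libraries were near-identical (chi-square over degrees of freedom 5.08 to 24.07).

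The members and gene lists were chosen with earlier results of these data known, and the lists written from general knowledge. All 10 members are named throughout. Of each list, counts are given, with up to 3 genes in each direction by largest log2 fold change among those past the threshold whose groups do not overlap; the text prints some of these. Alternatives were DESeq2 1.42.0, other scalings, no filter, a log2 limit of 1, fits of both groups only, the replicate number as a block, and leaving out each library or guide.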

Additional observations from a re-analysis of the deposited data

Results flagged for a closer look

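A set of 5 contrasts between the lines differed in a test of the difference itself, the interaction in the joint edgeR fit. The isoform difference (P1-a2 minus P2-a8, log2) of Panc10.05 minus that of BxPC3 was -5.81 for APOA1, -4.84 for APOA4, -5.01 for APOC3 and -0.53 for APOL1, and the response of APOL1 to P1-a2 against NC differed by -0.93. For APOA1, APOA4 and APOC3 the direction was opposite in the lines: the log2 fold changes were -2.56, -1.98 and -1.89 in Panc10.05 and 3.26, 2.87 and 3.12 in BxPC3. The lines also differed in doxycycline dose, in control construct (GFP or EV-NC) and in the HNF4A level of the P2-a8 cells (37.6 and 13.4 CPM). They differed as well in the number that begins their library titles, which may mark a batch. The part of these in the results was not tested. For APOL1, APOM and APOE, no library stood far from the other 3 in an ASPC1 group of 4 (Dixon's ratio under its critical value of 0.829). The other members had at most 2 counts in any ASPC1 library, too few to judge.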

How the results depend on the processing

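Taking the 41 member values past the threshold in the reported tests with APOA2 and APOB in the contrast of the isoforms between lines, 500 alternative values of these 43 were computed: 475 kept their direction and side of the threshold, 23 lost the call, 2 gained it and 0 reversed; the losses that concern single genes stand beside them in the text, except those of APOL1 when a limit of 1 was also set for the size of a log2 fold change, which drops its called values of -0.84, -0.81, -0.93, -0.53, -0.44 and 0.41. Of the 49 member values not past the threshold, 10 passed it under some alternative, of which 8 stand in the text. The others were APOA4 and APOB in the contrast of the lines in P1-a2 against NC, with DESeq2 (adjusted p = 0.00397 and 0.0338). Both genes had 0 counts in the controls of both lines, so these are no usable estimates of a difference between lines. For sgDual against sgP2 in ASPC1 the count of members called went from 1 to 0 with that limit and to 0 without guide sgDual3 or sgP2G, and for sgDual against sgP1 from 0 to 1 without guide sgP1E. The contrast of the lines in P1-a2 against NC called 1 member, 0 with the limit, 4 with DESeq2 and 1 to 2 when single libraries were left out; that in P2-a8 against NC called 0, 1 without the filter on low counts and 0 to 1 when single libraries were left out. The cause was not tested.

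With the replicate number as a block, the contrast of the lines in P2-a8 against NC called 1 member instead of 0, and sgP1E against sgP1J called 1 instead of 0 (APOL1); no other count of called members moved. Deviations of same-numbered libraries correlated over genes at -0.03 to 0.02 (Panc10.05), 0.23 to 0.41 (BxPC3) and 0.23 to 0.68 (ASPC1), and the labels do not say what the numbers share. The block raised the all-gene count from 1232 to 2886 for P2-a8 against NC in BxPC3, from 3963 to 5992 for P1-a2 against P2-a8 there, and between guides from 2467 to 4616 (sgP1), 288 to 778 (sgP2) and 150 to 558 (sgDual).

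Counts over all genes, the background of the members' counts, moved as well. Of these, sgP1 against sgNC called 45 genes, 1 without sgNC replicate 2 and 1242 without guide sgP1J; sgP2 against sgNC 581, 57 without sgNC replicate 2 and 1103 in a fit of both groups only; sgP2 against sgP1 731, 189 in such a fit and 2764 without guide sgP1E; sgDual against sgNC 6048 and 2775 without sgNC replicate 1; sgDual against sgP1 6505 and 4320 without guide sgDual3. BxPC3 P2-a8 against NC fell from 1232 to 495 without NC replicate 2, and P1-a2 against P2-a8 from 3963 to 2538 without P2-a8 replicate 1. Between guides the lowest counts were 1484, 135 and 53. With the limit of 1 the counts were 3385, 1663 and 1455 (Panc10.05), 1242, 364 and 526 (BxPC3), 23, 185, 1539, 161, 1143 and 1745 (ASPC1), 2468, 1199 and 1078 between lines, and 619, 124 and 73 between guides. Scaling by total counts moved the share of higher calls from 37.8% to 47.9% (sgP1 against sgNC) and from 48.5% to 59.1% (sgP2 against sgNC). Depth limits APOA4, APOB and APOC3 in Panc10.05 and the cluster genes in ASPC1.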
